A study of Mus musculus with 2 samples.

Results

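Detoxification enzymes and targets of the transcription factor NRF2 were examined in primary mouse myoblasts, the cultured progenitors of skeletal muscle. The set holds 8 genes of the NRF2 axis, namely Nfe2l2, Keap1, Nqo1, Hmox1, Gclc, Gclm, Txnrd1 and Srxn1, together with every gene whose symbol begins with Gst, Aldh or Akr followed by a family letter or number. These are the glutathione transferases, the aldehyde dehydrogenases and the aldo-keto reductases. The array held 66 such probe sets for 63 genes, out of 21789 probe sets with 1 gene symbol for 19938 genes. They comprise 8 probe sets of the NRF2 axis, 20 of glutathione transferases, 23 of aldehyde dehydrogenases and 15 of aldo-keto reductases. A further 7 probe sets met the rule only through 1 or more of several symbols and were left out.

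Total RNA of 1 MLL1 KO culture and 1 Control culture was hybridised to 1 Affymetrix MoGene 1.0 ST array each. Both cultures, taken from 1 myoblast line, were Rosa-CreER / MLL1 fl/fl myoblasts, so floxed Mll1 alleles and a tamoxifen-dependent Cre recombinase were present in both. The MLL1 KO culture received 500 nM 4-hydroxytamoxifen (4-OHT) in 0.01% ethanol for 7 days to induce the deletion, and the Control culture received 0.01% ethanol alone for 7 days. By the labels, 3 days without these agents followed. No Cre-negative culture given 4-OHT was part of the comparison, so the deletion and the exposure to 4-OHT cannot be told apart. Values are log2 signals after robust multi-array averaging (RMA), a difference is the MLL1 KO signal minus the Control signal, and a fold is 2 raised to the size of that difference. With 1 array per condition there is no replicate check, and no difference below could be set against a spread between cultures.

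NRF2, the product of Nfe2l2, is held in the cytoplasm by KEAP1, which presents it to a CUL3 ubiquitin ligase for degradation. Oxidants and electrophiles modify KEAP1, NRF2 then accumulates, pairs with a small MAF protein and binds antioxidant response elements near genes for glutathione synthesis, quinone reduction and haem breakdown. Glutathione transferases couple reactive compounds to glutathione, aldehyde dehydrogenases oxidise aldehydes to acids, and aldo-keto reductases reduce carbonyl groups to alcohols. Proliferating myoblasts use such enzymes against peroxides and the aldehydes formed from oxidised lipids.

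To show where the letters of this element lie near members, the promoter windows of RefSeq on GRCm38.p6, which run 250 bases before to 50 bases after a gene start, were searched on both strands for TGACNNNGC. Windows were matched for 52 of the 63 genes. The letters occurred in the windows of 11 of these genes (21.2%), against 14.0% of all 27025 genes with a window. The following 60-base stretches, given 5′ to 3′ on the strand of the gene with the match in capitals, lie before the start of 3 NRF2 axis genes and 3 glutathione transferase genes. The capitals of Gclm and Txnrd1 spell the element on the opposite strand.
Gclm: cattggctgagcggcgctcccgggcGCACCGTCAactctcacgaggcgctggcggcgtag
Txnrd1: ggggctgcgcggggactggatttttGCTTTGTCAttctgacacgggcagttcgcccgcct
Nfe2l2: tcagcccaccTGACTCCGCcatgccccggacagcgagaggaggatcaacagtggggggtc
Gstm5: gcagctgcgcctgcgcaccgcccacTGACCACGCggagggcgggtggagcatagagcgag
Gstm7: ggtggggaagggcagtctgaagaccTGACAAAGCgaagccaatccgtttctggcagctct
Gsta3: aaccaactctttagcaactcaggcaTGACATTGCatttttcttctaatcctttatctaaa
These stretches are chr3:122245398-122245457 on the plus strand for Gclm, chr10:82859089-82859148 on the plus strand for Txnrd1, chr2:75704854-75704913 on the minus strand for Nfe2l2, chr3:107895787-107895846 on the plus strand for Gstm5, chr3:107931709-107931768 on the minus strand for Gstm7 and chr1:21240439-21240498 on the plus strand for Gsta3. Srxn1, Aldh9a1, Aldh1a2, Akr1c19 and Akr1cl also held a match. The window of Nqo1 held none, and no window was matched for Hmox1, Gclc, Gsta4, Gstt2, Aldh1a3, Aldh1l2, Aldh2, Aldh3a1, Aldh3b2, Aldh7a1 or Akr1c20. Over these 52 genes, 2 other response elements were close to or below their share over all genes. TNGCGTG, the xenobiotic response element of the aryl hydrocarbon receptor, occurred for 3 of the 52 genes (5.77%), against 5.84% of all genes. TGANTCA, the AP-1 site, which shares its opening letters with the antioxidant response element and can overlap it, occurred for 4 of the 52 (7.69%), against 8.97% of all genes. Of the 25 matched genes with a mean signal over 7, 6 (24%) held the antioxidant response element. The xenobiotic response element and the AP-1 site each occurred for 3 of them (12%). Of the 11 matched genes over 1.5-fold higher, 2 (18.2%) held the antioxidant response element and 0 held either other site. These shares rest on few genes and were not tested. A match is a run of letters, and binding of NRF2 was not measured.

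The cultures carried the transcripts of myoblasts. All 12 myoblast markers had a signal over 7 in at least 1 array, with a median of 10.16 in MLL1 KO and 10.28 in Control, and 2 of them were over 2-fold lower, Fgfr4 and Myf5, with Myf5 at 6.14 in MLL1 KO and 9.51 in Control. Hepatocyte markers, which would mark the tissue best known for these enzymes, reached at most 5.73 in MLL1 KO and 6.11 in Control over 7 genes. Of 10 immune markers only Cd68 exceeded 7, at 7.47 in MLL1 KO and 6.08 in Control, and it was the 1 marker of the list that was higher. The other 9 were lower, the median difference of the list was -0.23, and the summed linear signal, 330 in MLL1 KO and 251 in Control, was higher through Cd68 alone. Of 12 fibroblast and fibro-adipogenic progenitor markers, 2 exceeded 7 in at least 1 array. Col3a1 read 7.67 in MLL1 KO and 8.12 in Control, and Cd34 read 7.22 in MLL1 KO and 5.96 in Control, over 2-fold higher. Of the 12, 10 were lower, and the sum was 695 in MLL1 KO and 744 in Control. Of 8 smooth muscle and pericyte markers, 4 exceeded 7 in at least 1 array, with 3 of the 8 higher and 5 lower. They include Des, also a myoblast marker, and Acta2, at 11.23 in MLL1 KO and 11.22 in Control. Rgs5, the farthest from 0, read 7.74 in MLL1 KO and 6.95 in Control. Of 7 adipocyte markers, 2 higher and 5 lower, only Pparg exceeded 7, at 8.90 in MLL1 KO and 8.61 in Control. No endothelial or Schwann cell marker exceeded 7. The part of other cell types in the differences below was not tested, and in bulk RNA a change in the number of cells of a type and a change in RNA per cell cannot be told apart. The Kmt2a probe set, for the gene of MLL1, read 9.66 in MLL1 KO and 9.44 in Control. It covers the whole transcript and therefore does not check the deletion. The paper assessed the deletion separately by RT-qPCR and reported loss of MLL1 protein in such myoblasts.

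Most of the 66 probe sets were higher in MLL1 KO, by small amounts. A higher signal was found for 42, a lower signal for 23 and an equal signal for 1 (Aldh8a1, at 3.44 in both), whereas 41.2% of all probe sets with 1 symbol were higher and 56% were lower. Their median difference was 0.17, against -0.05 over all probe sets with 1 symbol. Akr1c18 and Aldh3a1 were over 2-fold higher, as were 1.18% of all probe sets, but neither reached a signal of 7. In choosing genes for its summary table, the study required a signal over 7 for decreased and over 8 for increased genes. It states no such minimum beside its counts of genes over 2-fold. No member was over 2-fold lower, against 0.101% of all. At 1.5-fold, 15 members (22.7%) were higher, against 4.85% of all probe sets, and none was lower, against 2.03% of all.

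**Figure D1:**
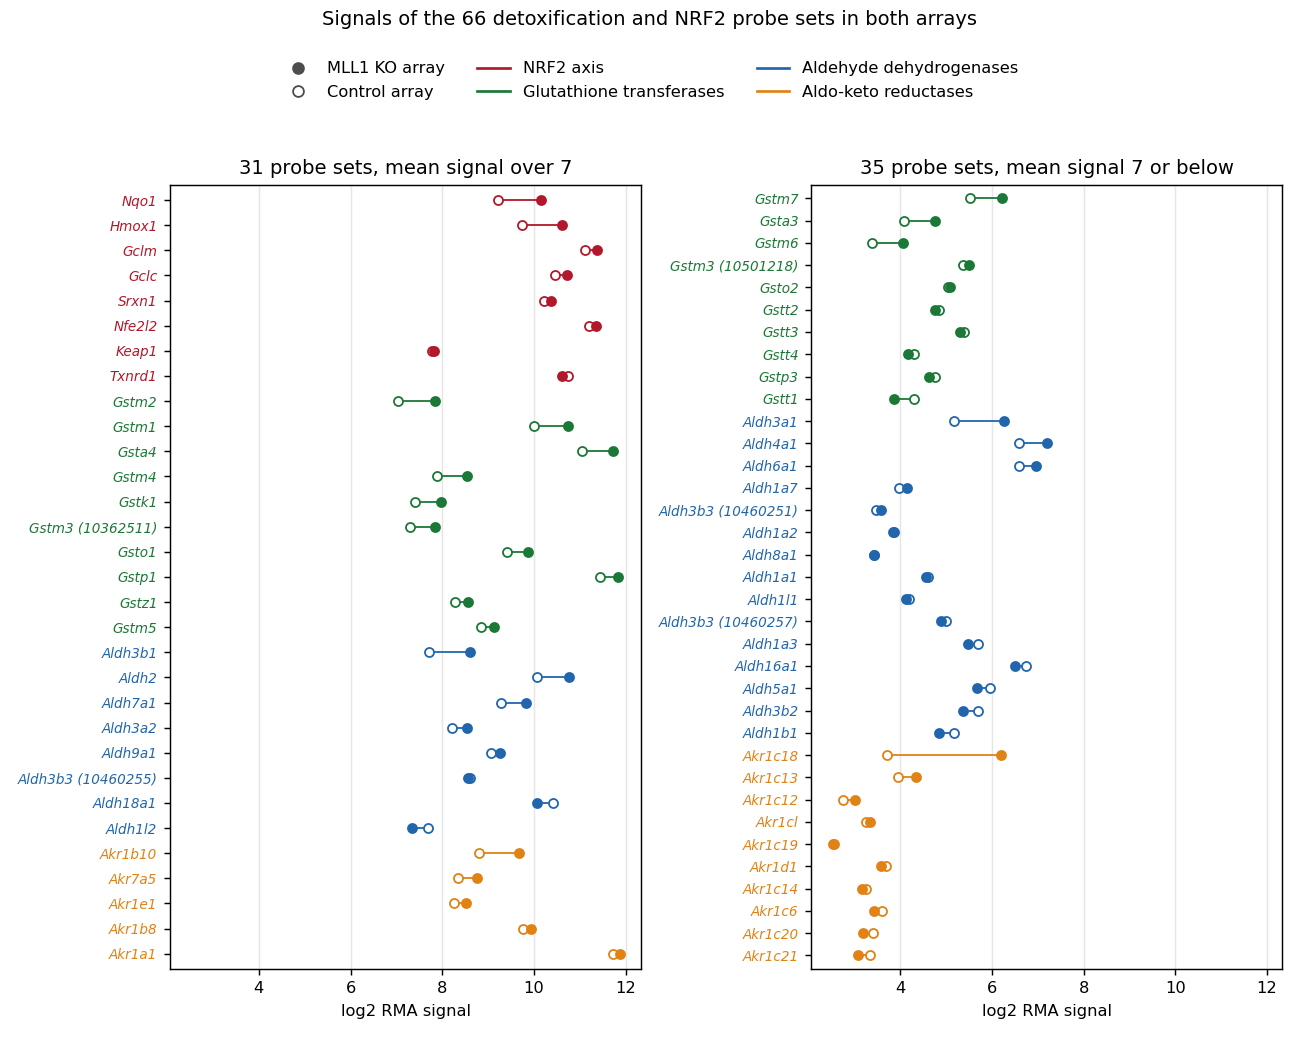
Log2 RMA signal of every member in the MLL1 KO array and in the Control array, by family and ordered by difference. The gap between the 2 points of a gene is widest for Akr1c18, at 6.20 in MLL1 KO and 3.71 in Control.

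Differences went with brightness across the whole array, so members were also read beside probe sets of like signal. With a mean signal of both arrays over 7, 27 of 31 members were higher and the other 4 lower. Their median was 0.34, against 57% higher, 42.7% lower and a median of 0.05 over all 9283 such probe sets. Of these 31 members 9 (29.0%) were over 1.5-fold higher, against 6.22% of all, and none was over 1.5-fold lower, against 1.85%. None passed 2-fold, against 1.28% of all upward and 0.183% downward. At a mean signal of 7 or below, 15 of 35 members were higher, 19 were lower and 1 was equal, with a median of -0.04. Over all 12506 such probe sets 29.5% were higher and 65.9% lower, with a median of -0.12. Of these 35 members 6 (17.1%) were over 1.5-fold higher, against 3.83% of all, and none was over 1.5-fold lower, against 2.16%. The direction of this dim range depended on the scaling. There were 18 higher and 17 lower after centring on the median, with a median of 0.02. The counts were 24 and 11 (median 0.11) after removal of the trend with signal, and 25 and 10 (median 0.07) after a second quantile normalization. All dim probe sets moved the same way, with 39.4%, 48.6% and 43.7% higher in the same order and medians of -0.06, -0.01 and -0.04. Over the bright members 26 to 28 of 31 were higher under these rescalings. Over all bright probe sets 65.8%, 53.0% and 49.5% were higher, in the same order. Both members over 2-fold lie in the dim range, where 139 of all 12506 probe sets were over 2-fold higher.

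**Figure D2:**
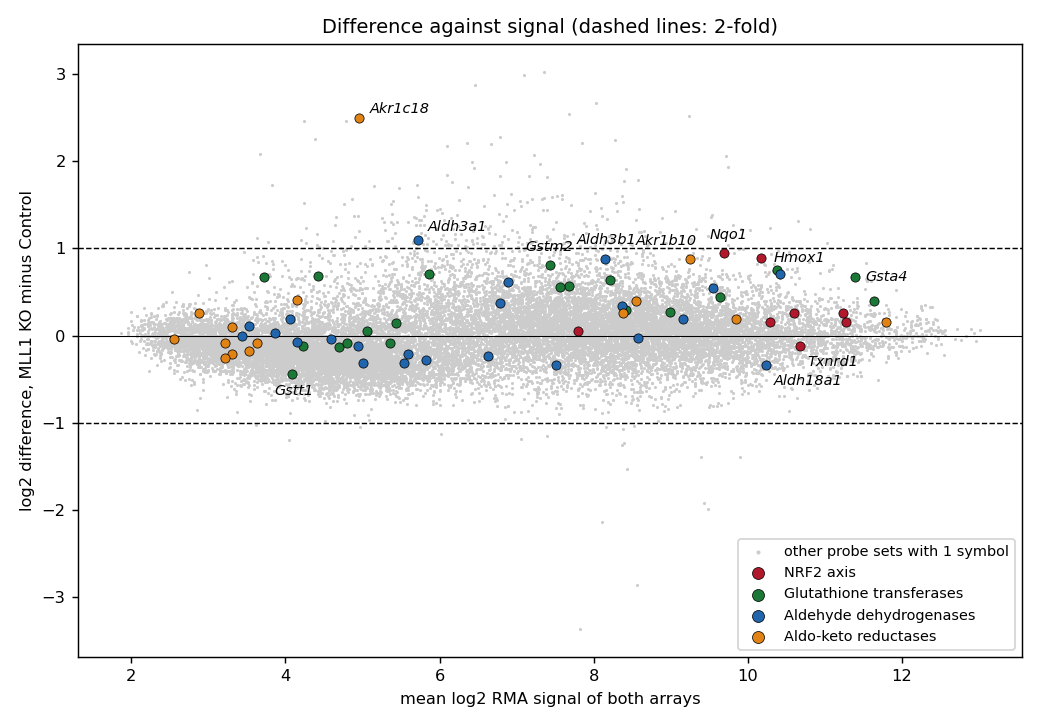
Log2 difference (MLL1 KO minus Control) against the mean log2 RMA signal of both arrays, with members coloured by family and all other probe sets with 1 symbol in grey. Members over 7 sit mostly above 0, with Nqo1 at 0.95 and Hmox1 at 0.89 close below the 2-fold line, and dim members lie on both sides of 0 apart from Akr1c18 and Aldh3a1.

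**Figure D3:**
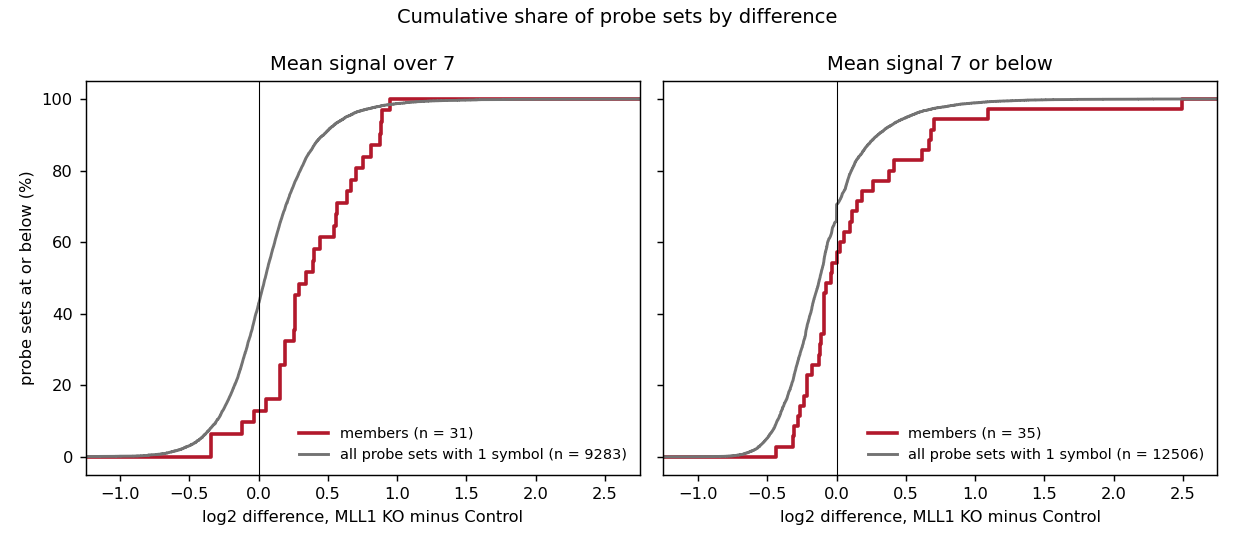
Cumulative percent of probe sets by log2 difference (MLL1 KO minus Control), for the members and for all probe sets with 1 symbol, with a mean signal over 7 on the left and of 7 or below on the right. On the left the members' curve runs to the right of that of all probe sets (medians 0.34 and 0.05), and on the right the curves lie closer (medians -0.04 and -0.12).

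Within the NRF2 axis, Nqo1 and Hmox1 stood well above the other 6 genes. Nqo1, a quinone reductase widely read as a reporter of NRF2, had a signal of 10.16 in MLL1 KO and 9.21 in Control, a difference of 0.95 or 1.93-fold. Hmox1, the inducible haem oxygenase, read 10.62 in MLL1 KO and 9.73 in Control, 1.85-fold higher. Of the probe sets in the same 1 of 10 equal groups by mean signal, 99.1% had a difference as low as that of Nqo1 or lower and 99.4% one as low as that of Hmox1 or lower.

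The remaining targets differed less. Gclm, the modifier subunit of glutamate-cysteine ligase, the enzyme that sets the rate of glutathione synthesis, read 11.36 in MLL1 KO and 11.10 in Control, and its catalytic subunit Gclc read 10.72 in MLL1 KO and 10.46 in Control, differences of 0.26 and 0.25. Srxn1, which repairs over-oxidised peroxiredoxins, read 10.36 in MLL1 KO and 10.21 in Control. Txnrd1, the cytosolic thioredoxin reductase, was the 1 lower gene of the axis, at 10.62 in MLL1 KO and 10.74 in Control, a difference of -0.12. The transcript of NRF2 itself, Nfe2l2, read 11.35 in MLL1 KO and 11.19 in Control, and that of its inhibitor Keap1 read 7.83 in MLL1 KO and 7.77 in Control. The Keap1 difference of 0.05 changed sign when the arrays were rescaled, to -0.01 after removal of the trend with signal and -0.03 after a second quantile normalization. Both regulators differed by less than the targets Nqo1 and Hmox1. Nfe2l2, at a difference of 0.15, was level with the target Srxn1, also at 0.15, and farther from 0 than Txnrd1.

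Glutathione transferases had the highest median of the 4 families, 0.42. Of their 20 probe sets 15 were higher and 5 lower, against 41.2% higher over all probe sets with 1 symbol. All 10 transferase probe sets with a mean signal over 7 were higher, by 0.27 to 0.81, against 57% of all such probe sets. The 10 dimmer ones were split 5 and 5, with a median of -0.02, against 29.5% higher over all dim probe sets. After removal of the trend with signal, and after a second quantile normalization, 19 of the 20 were higher. Over all probe sets with 1 symbol the shares higher were then 50.5% and 46.2%. The mu class, Gstm, was higher at all 8 probe sets of its 7 genes, with a median of 0.65. Gstm1 read 10.75 in MLL1 KO and 9.99 in Control (1.69-fold), Gstm2 read 7.84 in MLL1 KO and 7.03 in Control (1.75-fold) and Gstm4 read 8.53 in MLL1 KO and 7.89 in Control (1.55-fold). Mu-class enzymes conjugate electrophiles such as epoxides.

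Gstm7 was at 6.22 in MLL1 KO and 5.51 in Control (1.63-fold), and Gstm6 at 4.05 in MLL1 KO and 3.38 in Control (1.59-fold), both in the dim range. Gstm5 had the smallest difference of the bright Gstm probe sets, 0.27, at 9.12 in MLL1 KO and 8.85 in Control. Gstm3 had a pair of probe sets, one at 7.84 in MLL1 KO and 7.29 in Control and the other at 5.50 in MLL1 KO and 5.36 in Control. The 20 probe sets with the numbers nearest to the brighter of the pair belong to genes on chromosome 10, whereas Gstm3 lies on chromosome 3, so the locus that it measures is uncertain. The Gstm genes are close copies of each other, and probes shared between them could carry 1 gene's signal into another's value. They are therefore not independent observations.

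Beyond the mu class the bright members were also higher. Gsta4, an alpha-class enzyme that conjugates the lipid aldehyde 4-hydroxynonenal, read 11.72 in MLL1 KO and 11.05 in Control (1.59-fold), and the dim Gsta3 read 4.76 in MLL1 KO and 4.08 in Control (1.61-fold). Gstk1, the kappa-class enzyme of mitochondria and peroxisomes, read 7.96 in MLL1 KO and 7.40 in Control. Gsto1, an omega-class enzyme that also reduces dehydroascorbate, read 9.86 in MLL1 KO and 9.42 in Control. Gstp1, the pi-class enzyme, read 11.83 in MLL1 KO and 11.44 in Control. Gstz1, a zeta-class enzyme of tyrosine breakdown, read 8.56 in MLL1 KO and 8.27 in Control. These 4 lay between 1.23-fold and 1.48-fold higher.

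All 4 Gstt probe sets, of the theta class, were lower as deposited, with a median of -0.11, close to the -0.12 over all dim probe sets. After removal of the trend with signal, and after a second quantile normalization, Gstt2, Gstt3 and Gstt4 were higher and only Gstt1 was lower. Gstt1 was farthest, at 3.87 in MLL1 KO and 4.31 in Control, a difference of -0.44, and Gstt3, the brightest of them, read 5.31 in MLL1 KO and 5.40 in Control. Of the other dim members, Gstp3 read 4.63 in MLL1 KO and 4.76 in Control, and Gsto2 read 5.09 in MLL1 KO and 5.03 in Control.

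Aldehyde dehydrogenases were evenly split, with 11 of 23 probe sets higher (47.8%), 11 lower and 1 equal, and a median of 0.00. Over all probe sets with 1 symbol 41.2% were higher. After centring 14 of the 23 were higher, and 15 after each of the other rescalings. Over all probe sets the shares higher were 50.7% after centring, 50.5% after removal of the trend and 46.2% after quantile normalization. Of the 8 aldehyde dehydrogenase probe sets with a mean signal over 7, 5 were higher (62.5%) and the other 3 lower, and the median was 0.27. Over all such probe sets 57% were higher, with a median of 0.05. Aldh3a1, which oxidises aromatic and lipid aldehydes and is abundant in the cornea, passed 2-fold, at 6.27 in MLL1 KO and 5.18 in Control, 2.13-fold higher. Its relatives Aldh3b1, at 8.59 in MLL1 KO and 7.71 in Control (1.84-fold), and Aldh3a2, the fatty aldehyde dehydrogenase, at 8.54 in MLL1 KO and 8.20 in Control (1.27-fold), were higher too. Aldh3b3 had 3 probe sets, which did not move together: their differences were 0.11, -0.03 and -0.12, the brightest being at 8.56 in MLL1 KO and 8.59 in Control.

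Among the mitochondrial enzymes, Aldh2, which clears acetaldehyde, read 10.77 in MLL1 KO and 10.06 in Control (1.63-fold). The enzymes of proline metabolism lay on opposite sides of 0. Aldh4a1, of proline breakdown, read 7.20 in MLL1 KO and 6.58 in Control (1.53-fold higher), and Aldh18a1, of proline synthesis, read 10.07 in MLL1 KO and 10.41 in Control (1.27-fold lower). Aldh1l2, a mitochondrial folate enzyme that releases formyl groups, was lower by the same 0.34, at 7.34 in MLL1 KO and 7.68 in Control. These were the lowest differences among the aldehyde dehydrogenases.

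The other aldehyde dehydrogenases differed by less than 1.5-fold. Aldh7a1, of lysine breakdown, read 9.82 in MLL1 KO and 9.28 in Control, Aldh6a1, of valine breakdown, read 6.97 in MLL1 KO and 6.59 in Control, and Aldh9a1, of carnitine synthesis, read 9.25 in MLL1 KO and 9.06 in Control. Aldh5a1, which clears succinic semialdehyde, was lower at 5.68 in MLL1 KO and 5.96 in Control, and Aldh16a1 was lower at 6.51 in MLL1 KO and 6.75 in Control. The retinaldehyde dehydrogenases, which make retinoic acid, were all dim and differed little. Aldh1a1 read 4.57 in MLL1 KO and 4.61 in Control, Aldh1a2 read 3.87 in MLL1 KO and 3.85 in Control, and Aldh1a3 read 5.48 in MLL1 KO and 5.70 in Control. The remaining Aldh1a7, Aldh1b1, Aldh1l1 and Aldh3b2, also dim, differed by -0.31 to 0.19.

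Akr1c18 carried the widest difference of the whole set. This enzyme, a 20-alpha-hydroxysteroid dehydrogenase that inactivates progesterone in the mouse, read 6.20 in MLL1 KO and 3.71 in Control, a difference of 2.49 or 5.63-fold. The Control signal lies within the range of the other Akr1c genes in that array and no detection call was used, so it is not shown to be above background and the size of the fold is uncertain. The other 8 genes with a symbol that begins with Akr1c did not share this. They include Akr1cl, an Akr1c-like gene on chromosome 1, whereas Akr1c18 lies on chromosome 13. Of these 8 genes, 3 were higher, Akr1cl among them at 0.09, and 5 were lower. Their median was -0.06, their lowest difference was -0.26 and their highest was 0.41, for Akr1c13 at 4.36 in MLL1 KO and 3.94 in Control. No other Akr1c gene exceeded 4.36 in MLL1 KO or 3.94 in Control, so these differences rest on little signal, and 4 of the 8 were higher after centring or a second quantile normalization.

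Of the remaining aldo-keto reductases, all 5 with a mean signal over 7 were higher, with a median of 0.26. Over all such probe sets 57% were higher, with a median of 0.05. Akr1b10, an aldose reductase-like enzyme, read 9.68 in MLL1 KO and 8.80 in Control (1.84-fold). Its relative Akr1b8 differed less, at 9.94 in MLL1 KO and 9.75 in Control (1.14-fold). Akr7a5, which reduces succinic semialdehyde and aflatoxin aldehyde, read 8.75 in MLL1 KO and 8.35 in Control (1.32-fold), Akr1e1 read 8.51 in MLL1 KO and 8.25 in Control (1.20-fold) and the general aldehyde reductase Akr1a1 read 11.87 in MLL1 KO and 11.71 in Control (1.11-fold). Akr1d1, the steroid 5-beta-reductase, read 3.59 in MLL1 KO and 3.68 in Control.

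Related pathway genes, listed apart from the members, had medians between 0.01 and 0.11, against 0.17 for the members. The median was -0.05 over all probe sets with 1 symbol and 0.05 over those with a mean signal over 7. The shares higher were 41.2% and 57%. These differences were not tested. The partners and regulators of NRF2 comprised 8 higher and 7 lower of 15 probe sets, with a median of 0.05 and none over 1.5-fold either way. They include the small MAF proteins, the competing repressor BACH1 and the CUL3 ligase, and Maff was farthest, at 5.69 in MLL1 KO and 6.05 in Control. For glutathione metabolism and membrane glutathione transferases, 18 of 28 were higher and 10 lower, with a median of 0.09. Past 1.5-fold were 6 (21.4%) upward and 1 (3.57%) downward, against 4.85% and 2.03% of all probe sets with 1 symbol. At a mean signal over 7 these shares over all were 6.22% and 1.85%. Mgst2, a membrane-bound glutathione transferase, read 6.40 in MLL1 KO and 5.29 in Control (2.17-fold), and Ptges, which makes prostaglandin E, read 7.04 in MLL1 KO and 6.04 in Control (2.00-fold).

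Genes chosen after their values were seen show how uneven glutathione metabolism was. Gss, glutathione synthetase, read 8.47 in MLL1 KO and 7.69 in Control, and Gpx3, a secreted glutathione peroxidase, read 10.89 in MLL1 KO and 10.13 in Control. Gsr, glutathione reductase, was lower at 9.51 in MLL1 KO and 10.00 in Control, and Gpx2, the 1 gene over 1.5-fold lower, was at 4.69 in MLL1 KO and 5.54 in Control. Slc7a11, the cystine transporter and an NRF2 target, read 8.99 in MLL1 KO and 9.01 in Control.

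Of the other NRF2 targets, 15 of 23 probe sets were higher and 8 lower, with a median of 0.11. Over 1.5-fold higher were 4 (17.4%), against 4.85% of all probe sets. Ephx1, the microsomal epoxide hydrolase, read 10.22 in MLL1 KO and 8.84 in Control (2.61-fold), and Idh1, a cytosolic source of NADPH, read 10.90 in MLL1 KO and 9.67 in Control (2.35-fold). Both exceed every member except Akr1c18 in their difference. Thioredoxins, peroxiredoxins and superoxide defence comprised 13 higher and 7 lower of 20, with a median of 0.07, and Msrb1, a methionine sulfoxide reductase, was farthest at 8.38 in MLL1 KO and 7.73 in Control.

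Phase I and other conjugating enzymes comprised 12 higher and 11 lower of 23, with a median of 0.04. Aox1, aldehyde oxidase, was farthest at 8.41 in MLL1 KO and 7.72 in Control (1.61-fold). Cyp1a1, the classic target of the aryl hydrocarbon receptor, was dim, at 4.05 in MLL1 KO and 4.24 in Control. Ahr, the gene of that receptor, was higher, at 8.15 in MLL1 KO and 7.60 in Control. Cyp1b1 was also higher, at 5.16 in MLL1 KO and 4.72 in Control, while Cyp1a2 and Arnt were lower. These genes were named after their values were seen, and targets of the receptor were not tested as a group. The retinoid pathway comprised 11 higher, 10 lower and 1 equal of 22, with a median of 0.01. Over 1.5-fold higher were 4 (18.2%), against 4.85% of all probe sets. The retinoid receptor Rxrg, at 7.14 in MLL1 KO and 6.18 in Control, and the retinoic acid-binding protein Crabp2, at 6.18 in MLL1 KO and 5.23 in Control, were level at a difference of 0.95.

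**Figure D4:**
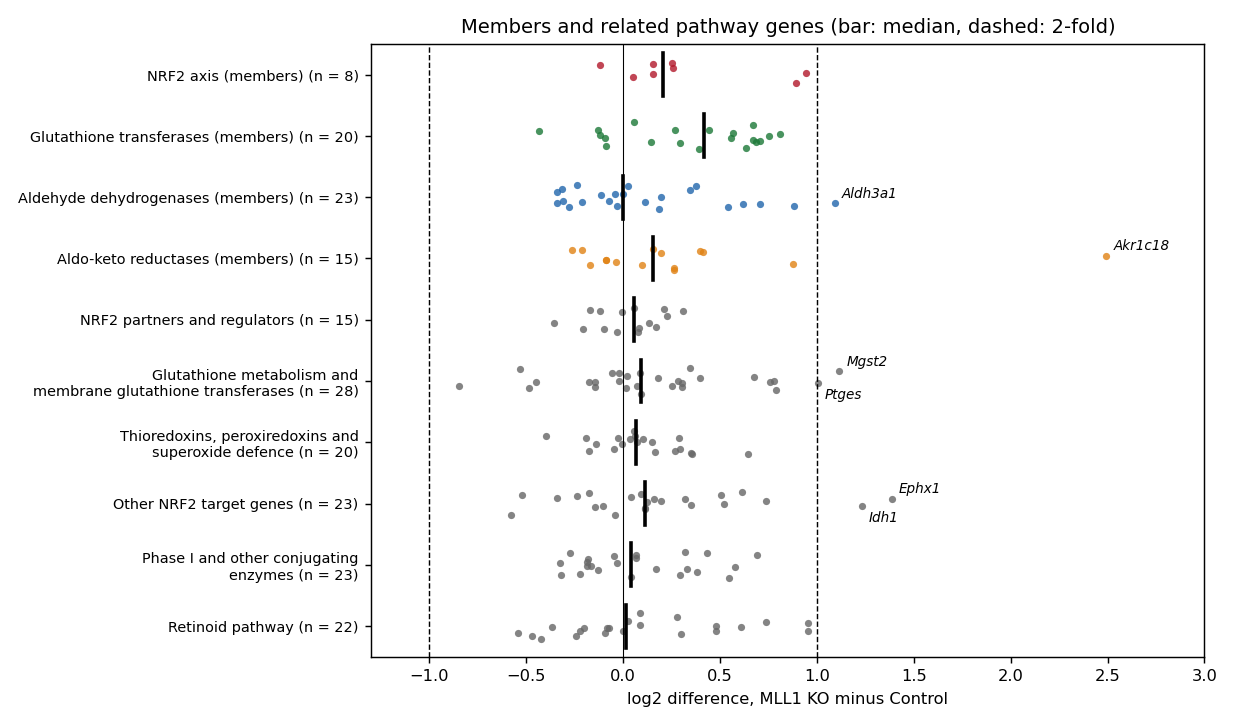
Log2 difference (MLL1 KO minus Control) of each probe set of the 4 member families and of 6 lists of related genes, with the median of each as a bar and 2-fold as dashed lines. The glutathione transferases have the median farthest from 0, at 0.42, and the lists of related genes have medians between 0.01 and 0.11.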

How the data were processed

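RNA of 1 MLL1 KO culture and 1 Control culture was measured on Affymetrix MoGene 1.0 ST arrays. The authors processed the raw data by RMA (background correction, quantile normalization and summary per probe set) and deposited log2 signals for 35557 probe sets. The RMA version and genome build are not given in the sources used here. Detection calls were not used. Symbols came from the platform annotation, and all 66 members matched RefSeq by gene number.

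Differences, folds, medians and counts were computed with Python 3.11.15, pandas 2.3.3 and numpy 2.4.6. The calling step was run on simulated data with planted differences well past the cut-off. That run checks the counting only and not how reliable the calls are in these arrays. No test or p-value was possible, since precision is set by having 1 array in each condition. The 2-fold cut-off is that of the study, which counted both increased and decreased genes with it. It was used here without the signal minimums by which the study chose genes for its summary table, and 1.5-fold was added. Members and lists were chosen with earlier results of these data known. Named are the NRF2 axis, every member over 1.5-fold, the brightest member of each subfamily, and in each list of related genes those over 2-fold or else the farthest from 0. Other genes were named after their values were seen. Alternatives were other cut-offs, signal minimums, median centring, removal of a lowess trend (span 0.3), quantile normalization, and 1 value per gene.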

Additional observations from a re-analysis of the deposited data

How the results depend on the processing

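Of the counts, 2 members over 2-fold higher became 15 at 1.5-fold, 1 at 3-fold, and 0 when the higher signal had to exceed 7, or 8, while centring gave 3 (Nqo1 reached 1.00). None was over 2-fold lower under any of these settings. The median difference of 0.17 became 0.37 with a signal over 7 and 0.32 with a signal over 8, and lay between 0.19 and 0.25 under the rescalings, the mean and 1 value per gene. Members higher numbered 46 after centring, 50 after removal of the lowess trend and 51 after quantile normalization, or 69.7%, 75.8% and 77.3%, against 50.7%, 50.5% and 46.2% of all probe sets. Members over 1.5-fold higher numbered 18, 15 and 13, against 6.10%, 5.29% and 4.52% of all probe sets. The sign turned under at least 1 of these 3 rescalings for 12 members, all within 0.13 of 0 as deposited. Keap1 turned lower and the other 11 turned higher, among them Gstt3 (0.08 after lowess, 0.02 after quantile normalization) and the brightest Aldh3b3 probe set (0.03 after centring). Ptges fell below 2-fold (0.95) and the retinoid median was -0.01 after quantile normalization, Rxrg reached 1.01 after centring, and Crabp2 reached 1.01 after centring, 1.08 after lowess and 1.01 after quantile normalization. The signal minimum on the mean of both arrays and the rescaled counts by family were chosen after seeing the data. No paired analysis was possible because there was 1 array per condition, and no replicate could be left out.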
